A study of Mus musculus with 16 samples.

Results

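The lymphoid priming genes described here were 10 genes measured in Tet2-deficient and wild-type (WT) mouse bone marrow progenitors in physioxia and in air. They were Dntt, Ighm, Il7r, Ccr9, Cd27, Ikzf1, Bcl11a, Irf8, Mn1 and Hes1. The 10 genes were taken from a list of symbols drawn up with earlier results of these data known, and each was found through its Ensembl identifier among the 6288 genes of the table. All 10 passed the filter on low values and were among the 6110 genes tested.

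Transcripts were counted by bulk RNA sequencing of CD45+ marrow cells after enrichment for LSK cells (lineage-negative, Sca1+, Kit+), the compartment of stem cells and multipotent progenitors. Mice were C57Bl/6J animals of both sexes aged 3 to 4 months, either Tet2-/- or WT. Tet2 encodes a dioxygenase that oxidises 5-methylcytosine and needs oxygen to do so. Cells were handled at 3% oxygen (physioxia) throughout or were placed in ambient air, about 21% oxygen, for 6 hours. The 4 groups were Tet2-deficient physioxia, WT physioxia, Tet2-deficient air and WT air, with 4 libraries each. Whether a library held cells of 1 animal or of a pool is not given in the labels used here, which call the libraries biological replicates, so p-values measure the spread between these libraries.

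Libraries had 7.77 to 15.7 M reads in the genes of the table. Tet2 itself averaged 482 ± 35.9 normalized counts in Tet2-deficient physioxia and 731 ± 97.4 in WT physioxia (SD, n = 4 each). In air the means were 554 ± 54.1 in Tet2-deficient cells and 855 ± 157 in WT cells. Transcript of the targeted gene was thus lower but present in the mutant libraries. Of the genes that define the enriched fraction, Kit averaged 6490.0 in Tet2-deficient physioxia and 3234 in WT physioxia. Its air means were 6737 in Tet2-deficient cells and 4099 in WT cells, whereas Ly6a (Sca1), Ptprc (CD45) and Cd34 were not among the 6288 genes of the table. A normalized count is a read count divided by a size factor for its library.

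Lymphoid priming is the low-level expression of lymphocyte genes in multipotent progenitors before lineage commitment. Transcription factors such as Ikaros and Bcl11a act early in this process, after which recombination enzymes, the interleukin-7 receptor and homing receptors come on in lymphoid progenitors. Irf8 and Hes1 also act outside lymphoid cells, Irf8 in monocytes and dendritic cells and Hes1 as a target of Notch signalling in many tissues.

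Promoters of 7 of the 10 genes were found in RefSeq (build GRCm38.p6). The 250 bases before the start are shown for 3 genes that were lower in Tet2-deficient cells in at least 1 oxygen condition (Dntt, Il7r and Ccr9) and for 2 that were higher in both (Cd27 and Bcl11a), 5′ to 3′ on the gene's own strand. Capitals mark E-boxes (CANNTG, the site type of the E proteins that drive lymphoid genes) and the Ikaros core (TGGGAA), each searched on both strands. The positions are chr19:41029025-41029274 (+) for Dntt, chr15:9529877-9530126 (-) for Il7r, chr9:123766961-123767210 (+) for Ccr9, chr6:125237028-125237277 (-) for Cd27 and chr11:24080445-24080694 (+) for Bcl11a.
Dntt: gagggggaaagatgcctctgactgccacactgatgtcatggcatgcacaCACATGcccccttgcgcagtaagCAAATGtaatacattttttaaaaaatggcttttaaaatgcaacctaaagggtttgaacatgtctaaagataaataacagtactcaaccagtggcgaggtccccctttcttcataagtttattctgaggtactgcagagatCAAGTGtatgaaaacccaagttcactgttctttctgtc
Il7r: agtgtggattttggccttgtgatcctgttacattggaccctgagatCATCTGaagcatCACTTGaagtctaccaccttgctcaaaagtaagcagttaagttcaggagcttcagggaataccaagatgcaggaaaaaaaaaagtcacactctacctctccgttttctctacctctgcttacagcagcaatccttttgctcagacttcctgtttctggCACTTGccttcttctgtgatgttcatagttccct
Ccr9: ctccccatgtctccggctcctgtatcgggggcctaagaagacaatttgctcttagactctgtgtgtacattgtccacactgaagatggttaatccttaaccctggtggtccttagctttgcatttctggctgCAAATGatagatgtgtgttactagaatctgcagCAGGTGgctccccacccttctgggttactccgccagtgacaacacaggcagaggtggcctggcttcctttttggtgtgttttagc
Cd27: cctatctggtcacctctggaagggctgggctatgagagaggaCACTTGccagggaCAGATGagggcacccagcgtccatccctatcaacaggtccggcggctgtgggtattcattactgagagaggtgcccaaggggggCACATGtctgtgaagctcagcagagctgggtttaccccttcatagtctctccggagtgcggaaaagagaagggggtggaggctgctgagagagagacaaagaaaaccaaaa
Bcl11a: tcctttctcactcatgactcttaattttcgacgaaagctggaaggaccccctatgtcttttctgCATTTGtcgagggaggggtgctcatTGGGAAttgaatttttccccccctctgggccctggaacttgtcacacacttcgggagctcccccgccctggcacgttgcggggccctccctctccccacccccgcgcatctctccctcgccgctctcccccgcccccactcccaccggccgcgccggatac
The Dntt, Il7r and Cd27 windows each held 3 E-boxes, the Ccr9 window 2 and the Bcl11a window 1. An E-box occurred in 66.2% of all 32851 RefSeq promoter windows of this length. Among the 5 windows shown, the Ikaros core occurred in that of Bcl11a alone, and it was in 21.6% of all windows. The motif of RBPJ, the DNA-binding partner of Notch (GTGGGAA, which contains the Ikaros core), was in none of the 7 genes' windows and in 5.42% of all. CpG dinucleotides numbered 2 in Dntt, 1 in Il7r, 3 in Ccr9 and 5 in Cd27, against 16 in Bcl11a and a median of 6 over all windows. A motif match is a match of letters and no evidence of binding.

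In physioxia, 7 of the 10 genes differed between Tet2-deficient and WT cells (limma, Benjamini-Hochberg adjusted p under 0.05), with Cd27 and Bcl11a higher and Dntt, Ighm, Ccr9, Irf8 and Mn1 lower. Of all 6110 genes tested, 69.4% were called in this comparison, 35.9% higher and 33.6% lower. In air, 8 of the 10 differed, with Cd27, Ikzf1, Bcl11a and Hes1 higher and Ighm, Il7r, Ccr9 and Mn1 lower, against 79.5% of all genes, 42.1% higher and 37.4% lower. With all libraries the share of the 10 genes called was near the background in both conditions. Without WT physioxia library 1, 4 of the 10 were called in physioxia, beside 3953 of the 6110 genes. The median log2 difference of the 10 genes was -0.53 in physioxia and -0.29 in air, beside 0.06 and 0.24 over all genes tested. The groups did not overlap for 5 of the 10 genes in physioxia (background 57.6%), 2 higher (29.7%) and 3 lower (28.0%). In air this held for 7 of the 10 (background 70.6%), 2 higher (35.2%) and 5 lower (35.5%). Scaling to total reads moved the median of all genes to 0.29 in physioxia and 0.35 in air, and 68.3% of the calls in physioxia were then higher, beside 51.7% as deposited. Quantile normalization gave medians of 0.02 in physioxia and 0.12 in air. Neither reversed the direction of any of the 10 genes in the genotype comparisons.

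**Figure D1:**
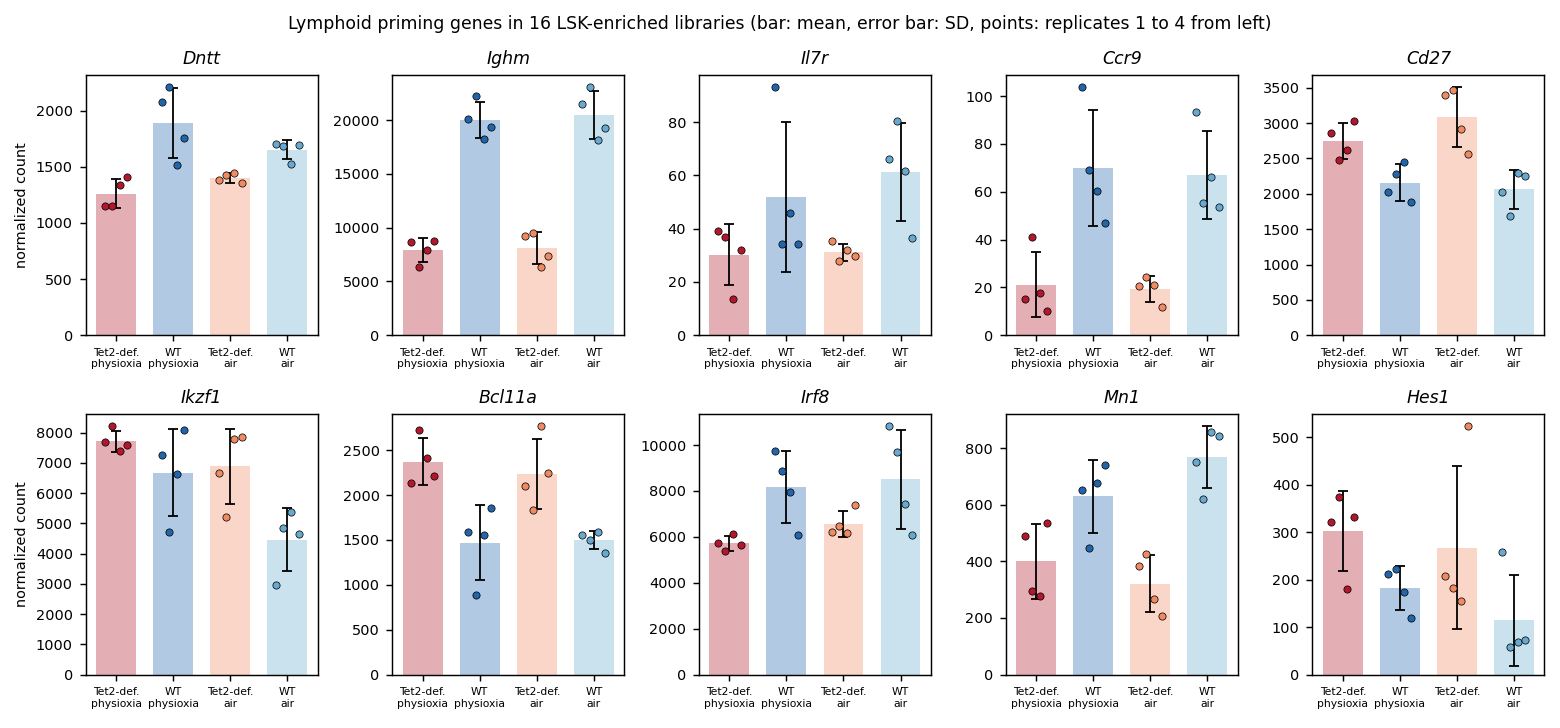
Normalized counts (linear axes from 0) of each of the 10 genes in the 4 groups, with points for the 4 libraries of a group, bars for the mean and error bars for the SD. Ighm and Ccr9 of Tet2-deficient cells lie below every WT library of the same oxygen condition, and Cd27 and Bcl11a lie above.

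Dntt (ENSMUSG00000025014, GRCm38 chromosome 19, 41029275 to 41059525, plus strand) encodes terminal deoxynucleotidyl transferase, which adds bases at the joints of immunoglobulin and T cell receptor genes. It had 1154, 1148, 1335 and 1413 normalized counts in Tet2-deficient physioxia and 2075, 2212, 1515 and 1760.1 in WT physioxia. In air it had 1382, 1428, 1444 and 1353 in Tet2-deficient cells and 1702, 1688, 1528 and 1690.5 in WT cells. Every Tet2-deficient library lay below every WT library of the same condition. In physioxia Dntt fell by 0.57 ± 0.12 on the log2 scale (SE, limma adjusted p = 0.000791). In air the difference was -0.24 ± 0.12 and missed the threshold (limma adjusted p = 0.0695), although DESeq2 on recovered reads called it (log2 difference -0.28, adjusted p = 0.0335), as did the limma fit without WT physioxia library 2 (adjusted p = 0.0384) or 3 (0.046).

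Ighm (ENSMUSG00000076617, chromosome 12, 113418558 to 113422730, minus strand) encodes the constant region of the immunoglobulin mu heavy chain, transcribed before and after the locus recombines. Ighm had 8639, 6316, 7933 and 8759 normalized counts in Tet2-deficient physioxia and 20128, 22207, 18286 and 19376 in WT physioxia. After air the values were 9182, 9535, 6339.9 and 7401 in Tet2-deficient cells and 21525, 23085, 18109 and 19228 in WT cells. The highest Tet2-deficient library stayed far below the lowest WT library in both conditions. Ighm was 2.54-fold lower in Tet2-deficient cells in physioxia (log2 difference -1.35 ± 0.14, limma adjusted p = 2.09e-06) and 2.55-fold lower in air (-1.35 ± 0.14, adjusted p = 1.95e-06). In bulk samples, fewer cells of a type and less RNA per cell cannot be told apart.

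Some B cell markers were lower, beside 33.6% of all genes tested in physioxia and 37.4% in air. In physioxia 3 of 7 markers measured fell and 0 rose (limma adjusted p under 0.05, the rule for all gene lists). These were Vpreb1, a surrogate light chain of pre-B cells (log2 difference -1.15 ± 0.27, the scale of all list values), and the B cell surface proteins Cd72 (-0.64 ± 0.18) and Cd37 (-0.38 ± 0.12). In air 4 fell, among them Cd37 (-0.44 ± 0.12) and the lambda light chain constant gene Iglc1 (-1.10 ± 0.46), and 2 rose. Both that rose are genes of mature B cells: Ighd, the delta constant region downstream of Ighm (1.26 ± 0.28), and Fcer2a (2.39 ± 0.79). The median over the 7 markers was -0.64 in physioxia and -0.44 in air. Their summed normalized counts ranged over 3111 to 4133 in Tet2-deficient physioxia and 4992 to 6042 in WT physioxia, and in air over 3374 to 3921 in Tet2-deficient cells and 4877 to 6116 in WT cells. Of these markers, only Fcer2a was at 0 in any library, in WT groups. Their part in the Ighm result was not tested.

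Il7r (ENSMUSG00000003882, chromosome 15, 9505788 to 9530176, minus strand) encodes the alpha chain of the receptor for interleukin-7, a survival signal of lymphoid progenitors. It was weakly expressed, with 10 to 80 reads per library. Il7r had 38.98, 36.7, 13.6 and 31.8 normalized counts in Tet2-deficient physioxia and 93.2, 34.1, 45.7 and 34.1 in WT physioxia, and these groups overlapped. In air it had 35.2, 27.8, 32.0 and 29.6 in Tet2-deficient cells and 66.3, 80.5, 61.7 and 36.4 in WT cells, with the highest mutant library just below the lowest WT library. Il7r fell by 0.90 ± 0.37 on the log2 scale in air (limma adjusted p = 0.0364), and its difference in physioxia was -0.73 ± 0.37 (adjusted p = 0.0900). The call in air was lost without WT air library 1 (log2 difference -0.85), 2 (-0.75) or 3 (-0.88), or without Tet2-deficient air library 2 (-0.85), 3 (-0.92) or 4 (-0.88), with limma adjusted p up to 0.098, and when scaled to total reads (-0.79, adjusted p = 0.0689). Under quantile normalization the physioxia difference passed (-0.97, adjusted p = 0.0235).

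Of 19 listed genes of interleukin-7 and common gamma chain signalling, 7 were in the table. In physioxia 3 rose and 3 fell (median 0.27), and in air 3 rose and 3 fell (median 0.30). Cish, a feedback inhibitor induced through STAT5, fell by 0.97 ± 0.22 in physioxia and by 0.99 ± 0.22 in air. Stat5a itself rose by 0.47 ± 0.13 in physioxia, as did the feedback inhibitor Socs3 (0.63 ± 0.17). Tslp, a cytokine that signals through a receptor containing the Il7r chain, fell by 1.35 ± 0.23 in air. The signalling genes thus showed no shared direction.

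Ccr9 (ENSMUSG00000029530, chromosome 9, 123678439 to 123784330, plus strand) encodes the CCL25 receptor that guides progenitors to the thymus and also marks plasmacytoid dendritic cells. It too was low, at 12 to 97 reads per library. Ccr9 had 15.4, 41.05, 17.7 and 10.3 normalized counts in Tet2-deficient physioxia and 104, 69.2, 60.3 and 46.9 in WT physioxia. The air libraries had 20.5, 24.3, 21.0 and 11.9 in Tet2-deficient cells and 93.2, 55.3, 66.1 and 53.6 in WT cells. No mutant library reached the lowest WT library of its condition. It was 3.49-fold lower in Tet2-deficient cells in physioxia (log2 difference -1.80 ± 0.38, limma adjusted p = 0.000954) and 3.35-fold lower in air (-1.75 ± 0.38, adjusted p = 0.00122), the largest log2 differences among the 10 genes in both conditions. The exons of Ccr9 share 18.8% of their bases with a gene on the opposite strand, AC165425.1, and 2.62% with Gm17200 on its own strand. The strand setting of the counting is not given in the sources used here, so the Ccr9 counts are uncertain to that extent.

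T and NK cell markers and dendritic cell markers were mostly lower in Tet2-deficient cells, as were Ccr9 in both conditions and Il7r in air. This was not particular to these genes. Around group means the T and NK cell list had r = 0.37 with Ccr9 and 0.60 with Il7r, beside 0.72 with Irf8 and 0.61 with Dntt. Of 24 T and NK cell markers measured, 21 fell and 1 rose in each condition (in air Cd4, 2.08 ± 0.35). The median of these markers was -2.14 in physioxia and -1.93 in air. Their summed normalized counts ranged over 18787 to 26527 in Tet2-deficient physioxia and 28631 to 47276 in WT physioxia, and in air over 18664 to 26802 in Tet2-deficient cells and 31278 to 37605 in WT cells. Such a sum is set mostly by the most abundant genes of a list. The mean log2 level of these markers ranged over 4.45 to 5.40 in Tet2-deficient physioxia and 5.85 to 7.87 in WT physioxia. In air it ranged over 4.59 to 5.29 in Tet2-deficient cells and 6.00 to 7.52 in WT cells. Of 12 dendritic cell markers, a list that includes Ccr9, 8 fell and 2 rose in physioxia (median -1.05) and 7 fell and 2 rose in air (median -0.79). Their sums were 2627 to 2870 in Tet2-deficient physioxia and 3612 to 6858 in WT physioxia, and in air 2762 to 3271 in Tet2-deficient cells and 3500 to 6934 in WT cells. Single Tet2-deficient libraries had 0 reads of Bcl11b or Eomes, and in physioxia also of Cd8b1 or Trac. The part of these cells in the Il7r and Ccr9 results was not tested.

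Cd27 (ENSMUSG00000030336, chromosome 6, 125232622 to 125237010, minus strand) encodes a TNF receptor family member present on short-term progenitors and lymphocytes. It had 2861, 2471, 2619 and 3030.2 normalized counts in Tet2-deficient physioxia and 2023, 2279, 2453 and 1879 in WT physioxia. In air, Tet2-deficient cells had 3392, 3467, 2918 and 2558 and WT cells 2025, 1684, 2299 and 2245. All mutant libraries lay above all WT libraries of their condition, opposite in direction to Il7r and Ccr9. Cd27 shares 5.54% of its exon bases with Mir8113 on its own strand, so its counts are uncertain to that extent. Cd27 was 1.27-fold higher in physioxia (log2 difference 0.35 ± 0.13, limma adjusted p = 0.0251) and 1.49-fold higher in air (0.58 ± 0.13, adjusted p = 0.00160). The physioxia call was lost without WT physioxia library 1 (0.32) or 4 (0.29), or without Tet2-deficient physioxia library 1 (0.33) or 4 (0.30), with adjusted p up to 0.0765. Progenitor markers of the LSK list rose as well, 5 of 5 measured of 12 listed in each condition. Of all genes tested, 35.9% were higher in physioxia and 42.1% in air. The median of these 5 markers was 1.04 in physioxia and 0.97 in air. The sums of these 5 were 11774 to 17624 in Tet2-deficient physioxia and 4856 to 8680 in WT physioxia, and in air 11495 to 17930 in Tet2-deficient cells and 7143 to 9056 in WT cells, and their part in the Cd27 result was not tested.

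**Figure D2:**
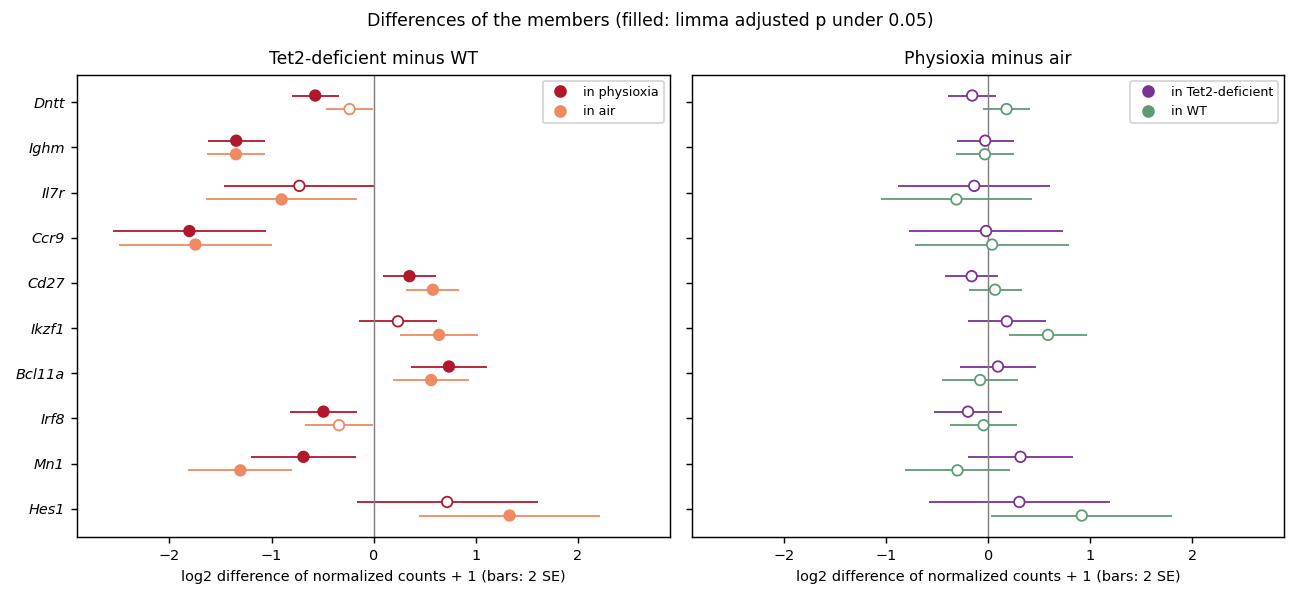
Log2 differences of the 10 genes, Tet2-deficient minus WT in physioxia and in air and physioxia minus air in each genotype, with bars of 2 SE of the limma fit and filled points for adjusted p under 0.05. Filled points appear in the genotype comparisons and none in the oxygen comparisons.

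Ikzf1 (ENSMUSG00000018654, chromosome 11, 11685003 to 11772926, plus strand) encodes Ikaros, a zinc finger factor needed for lymphoid specification. It had 7672, 8209, 7385 and 7585 normalized counts in Tet2-deficient physioxia and 7249, 4703, 6631 and 8089 in WT physioxia. In air it had 6668, 5205, 7790.0 and 7853 in Tet2-deficient cells and 2967, 4851, 5378 and 4651 in WT cells. The groups overlapped in both conditions, and WT air library 1 was the lowest of all. Ikzf1 was 1.56-fold higher in Tet2-deficient cells in air (log2 difference 0.64 ± 0.19, limma adjusted p = 0.00837) and differed by 0.24 ± 0.19 in physioxia (adjusted p = 0.274). These 2 differences were not shown to differ from each other (interaction -0.40 ± 0.27, adjusted p = 0.626).

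Bcl11a (ENSMUSG00000000861, chromosome 11, 24078056 to 24174123, plus strand) encodes a zinc finger repressor required for B cell development. Its values were 2137, 2721, 2415 and 2218 normalized counts in Tet2-deficient physioxia and 1589, 882, 1551 and 1857 in WT physioxia. In air they were 2100.1, 1833, 2767 and 2241 in Tet2-deficient cells and 1554, 1496, 1590.1 and 1358 in WT cells. Mutant libraries lay above WT libraries without overlap in both conditions. Bcl11a shares 2.40% of its exon bases with 4930538E20Rik on the opposite strand, which makes its counts uncertain to that extent. It was 1.67-fold higher in physioxia (log2 difference 0.74 ± 0.19, limma adjusted p = 0.00333) and 1.48-fold higher in air (0.56 ± 0.19, adjusted p = 0.0142). In air both zinc finger factors were thus higher on average in Tet2-deficient cells, in which Ighm and Ccr9 were lower, although the Ikzf1 groups overlapped. The call of Ikzf1 in air was lost without Tet2-deficient air libraries 3 and 4 together (0.44, limma adjusted p = 0.116), as was that of Bcl11a (0.39, adjusted p = 0.143).

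Irf8 (ENSMUSG00000041515, chromosome 8, 120736358 to 120756694, plus strand) encodes an interferon regulatory factor that acts in B cells, dendritic cells and monocytes. It had 5734, 5372, 6144 and 5634 normalized counts in Tet2-deficient physioxia and 9735, 8881, 7952 and 6071 in WT physioxia. In air it had 6228, 6477, 6189 and 7382 in Tet2-deficient cells and 10818, 9678, 7419.9 and 6081 in WT cells. WT libraries spread widely, with library 4 inside the mutant range in physioxia and below it in air. Irf8 fell by 0.49 ± 0.17 on the log2 scale in physioxia (limma adjusted p = 0.0159). The physioxia call was lost without WT physioxia library 1 (-0.40, adjusted p = 0.0559), under quantile normalization (-0.23, adjusted p = 0.232) and when scaled to total reads (-0.26, adjusted p = 0.184). The air difference of -0.34 ± 0.17 missed the threshold in limma (adjusted p = 0.0686), passed it in edgeR (-0.38, adjusted p = 0.0419) and DESeq2 (-0.41, adjusted p = 0.0208), and passed it in limma without WT air library 4 (-0.49, adjusted p = 0.0151) or WT physioxia library 4 (-0.34, adjusted p = 0.0465).

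Monocyte and macrophage markers followed the same libraries. Of 9 measured, 6 fell and 1 rose in physioxia (median -0.82), and 8 fell and 1 rose in air (median -0.81). Their sums were 18874 to 22705 in Tet2-deficient physioxia and 27346 to 56731 in WT physioxia, and in air 19849 to 25471 in Tet2-deficient cells and 29230 to 55257 in WT cells. Around group means, Irf8 and the mean monocyte marker level had r = 0.93 over the 16 libraries, which share their depth and scaling. Same-numbered WT libraries also deviated together (r = 0.16 to 0.33 over all genes tested), so the 16 are not independent. The mean log2 marker level ranged over 10.5 to 11.3 in WT physioxia and 10.0 to 10.1 in Tet2-deficient physioxia. In air it ranged over 10.6 to 11.4 in WT cells and 10.1 to 10.3 in Tet2-deficient cells. Irf8 also had r = 0.88 with the dendritic cell markers and 0.87 with the neutrophil markers. Neutrophil markers also fell, 7 of 8 in each condition, with a median of -2.43 in physioxia and -2.24 in air. The part of these cells in the Irf8 result was not tested. Of 10 measured genes of the interferon regulatory factor and PU.1 group, 8 fell and 1 rose in physioxia (median -0.62), and 7 fell and 2 rose in air (median -0.65). Spi1, which encodes PU.1, a partner of Irf8 on DNA, fell by 0.70 ± 0.12 in physioxia and by 0.66 ± 0.12 in air. The interferon-gamma receptor chain Ifngr2 fell by 1.17 ± 0.13 in physioxia and by 1.25 ± 0.13 in air.

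**Figure D3:**
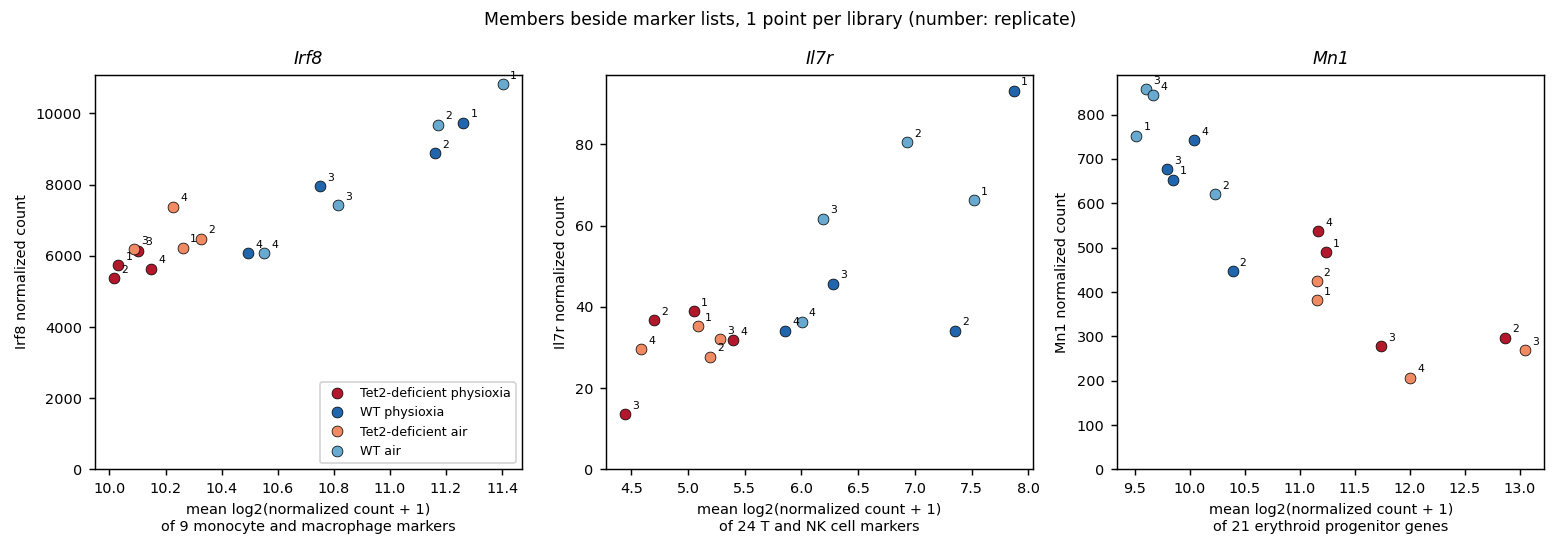
Normalized counts of Irf8, Il7r and Mn1 against the mean log2 level of monocyte, T and NK cell, and erythroid genes, with 1 point per library coloured by group and numbered by replicate. Irf8 tracks the monocyte markers (r = 0.93 around group means), Il7r the T and NK cell markers (r = 0.60), and Mn1 runs against the erythroid genes (r = -0.71). Lists not drawn here were also close, for Irf8 the dendritic cell (0.88) and neutrophil (0.87) lists. Il7r was closer to the early lymphoid list (0.76) and Mn1 to the LSK list (0.86).

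Mn1 (ENSMUSG00000070576, chromosome 5, 111417362 to 111457033, plus strand) encodes a transcriptional coregulator of myeloid progenitors and leukaemia. Mn1 had 490.2, 297, 277 and 537 normalized counts in Tet2-deficient physioxia and 654, 446, 677 and 743 in WT physioxia, where the groups overlapped. In air it had 382, 425, 268 and 207 in Tet2-deficient cells and 753, 621, 858 and 844 in WT cells, with no overlap. Mn1 was 1.61-fold lower in Tet2-deficient cells in physioxia (log2 difference -0.69 ± 0.26, limma adjusted p = 0.0253) and 2.47-fold lower in air (-1.31 ± 0.26, adjusted p = 0.000593). The physioxia call was lost when scaled to total reads (-0.46, adjusted p = 0.153). It was also lost without WT physioxia library 1 (-0.66), 3 (-0.64) or 4 (-0.60), or without Tet2-deficient physioxia library 2 (-0.56) or 3 (-0.53), with adjusted p up to 0.0892. Erythroid markers moved the other way, with 17 of 21 measured higher in physioxia (median 1.75) and 20 of 21 in air (median 2.12) and none lower. Summed, these markers came to 133777 to 361025 in Tet2-deficient physioxia and 49549 to 87037 in WT physioxia, against air values of 139620 to 401853 in Tet2-deficient air and 40404 to 64389 in WT air. Around group means, Mn1 had r = -0.71 with these markers and 0.86 with the LSK markers over the 16 libraries. The LSK markers were higher in Tet2-deficient cells, in which Mn1 was lower. The part of either list in the Mn1 result was not tested.

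Hes1 (ENSMUSG00000022528, chromosome 16, 30064384 to 30067796, plus strand) encodes a repressor induced by Notch. It had 321, 375, 181 and 333 normalized counts in Tet2-deficient physioxia and 212, 221, 174 and 119 in WT physioxia. In air it had 208, 183, 155 and 523 in Tet2-deficient cells and 259, 58.4, 69.4 and 71.8 in WT cells. Library 4 of Tet2-deficient air and library 1 of WT air stood far above the rest of their groups, and the groups overlapped in both conditions. Hes1 was 2.51-fold higher in Tet2-deficient cells in air (log2 difference 1.33 ± 0.44, limma adjusted p = 0.0148) and differed by 0.72 ± 0.44 in physioxia (adjusted p = 0.156). Without Tet2-deficient air library 4 the air difference was 0.95 and missed the threshold (limma adjusted p = 0.0550), and without WT air library 1 it was 1.82 (adjusted p = 0.00111). The physioxia difference passed when limma was fitted to the compared groups alone (0.72, adjusted p = 0.0392). Of 9 Notch pathway genes measured, 3 rose and 2 fell in physioxia (median 0.10), and 4 rose and 3 fell in air (median -0.21). Among those that fell were Hes6, a relative of Hes1, in physioxia (-0.59 ± 0.15) and the coactivator Maml1 in air (-0.80 ± 0.24). The related target Hes5 rose by 0.86 ± 0.29 in physioxia and by 1.58 ± 0.29 in air, the further coactivator Maml2 by 1.16 ± 0.16 and 1.19 ± 0.16, and the protease Adam10, which cleaves Notch receptors, by 0.71 ± 0.12 and 0.64 ± 0.12.

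Other early lymphoid regulators were mixed. Of 19 measured of 34 listed, 3 rose and 9 fell in physioxia (median -0.28), and 6 rose and 8 fell in air (median -0.39). Id1, an inhibitor of E proteins, rose by 2.00 ± 0.22 in physioxia and by 2.54 ± 0.22 in air, and the related Id3 by 0.70 ± 0.14 and 1.20 ± 0.14. Mef2c, a factor that favours lymphoid over myeloid fate, fell by 1.05 ± 0.19 in physioxia and by 1.18 ± 0.19 in air.

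Physioxia against air gave no call among the 10 genes in either genotype. In WT cells limma called 0 of the 10, as did edgeR and DESeq2, against 5.76% of all genes by limma, 4.91% higher and 0.851% lower. At an unadjusted p under 0.05 it was 1 of the 10, Ikzf1 (log2 difference 0.59 ± 0.19, adjusted p = 0.0865). Mn1 was lower in physioxia than in air in each of the 4 same-numbered WT pairs and was not called (-0.30 ± 0.26, limma adjusted p = 0.562, and 0.232 with the replicate number as a block in WT libraries). The share of all genes with the same direction in all 4 WT pairs was not measured, so this pattern is not read as a result. The WT groups overlapped for each of the 10 genes (background of groups without overlap 11.0%, 7.82% higher and 3.16% lower), and the median of the 10 was 0.00 beside 0.01 over all genes. Ikzf1 passed without WT physioxia library 2 (0.74, adjusted p = 0.0431), and Hes1 passed without WT air library 1 (1.40, adjusted p = 0.0469, against 0.92 ± 0.44 and adjusted p = 0.270 with all libraries). Among other early lymphoid regulators, 4 of 19 rose in WT physioxia, namely Tcf3 (2.01 ± 0.46) and Tcf12 (0.88 ± 0.19), which encode E proteins, Myb (0.70 ± 0.15) and Lmo2 (1.20 ± 0.28). All 4 calls were lost without WT air libraries 1 and 2 together, and when the annotated genes that the table lacks were added as not changed, since limma then called 0 genes. In Tet2-deficient cells limma, edgeR and DESeq2 again called 0 of the 10, and 0 passed an unadjusted p under 0.05. Over all genes limma called 0.0%, with 280 genes at an unadjusted p under 0.05, edgeR 0 genes and DESeq2 8. Irf8 was the single gene whose Tet2-deficient groups did not overlap, lower in physioxia (-0.20 ± 0.17, limma adjusted p = 1.0, background 3.75%, 2.32% higher and 1.42% lower), and the median of the 10 was -0.02 beside 0.00 over all genes.

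The genotype difference was also compared between oxygen conditions. The interaction was called for 0 of the 10 genes by limma, edgeR and DESeq2 and for 0 at an unadjusted p under 0.05, with limma adjusted p between 0.564 and 0.996, and limma called 0.0% of all genes, with 546 at an unadjusted p under 0.05, edgeR 0 and DESeq2 10. For Ighm it was 0.00 ± 0.20 and for Ccr9 -0.06 ± 0.53. Mn1 had the largest estimate (0.62 ± 0.36, adjusted p = 0.589), then Hes1 (-0.61 ± 0.63, adjusted p = 0.748). The comparisons share libraries, so their values are given side by side only.

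Per kilobase of exon, Ighm had the highest level in every group, averaging 4195 normalized counts per kb in Tet2-deficient physioxia and 10604 in WT physioxia, and in air 4302 in Tet2-deficient cells and 10863 in WT cells. Cd27, Ikzf1 and Irf8 followed at 772 to 1335, in an order that differed between groups. Dntt came next at 551 to 825, then Bcl11a at 112 to 180. Hes1 and Mn1 lay between 46.2 and 148. Il7r (6.49 to 13.1) and Ccr9 (1.89 to 6.83) were lowest in every group. The most abundant and the least abundant of the 10 genes were thus both lower in Tet2-deficient cells.

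**Figure D4:**
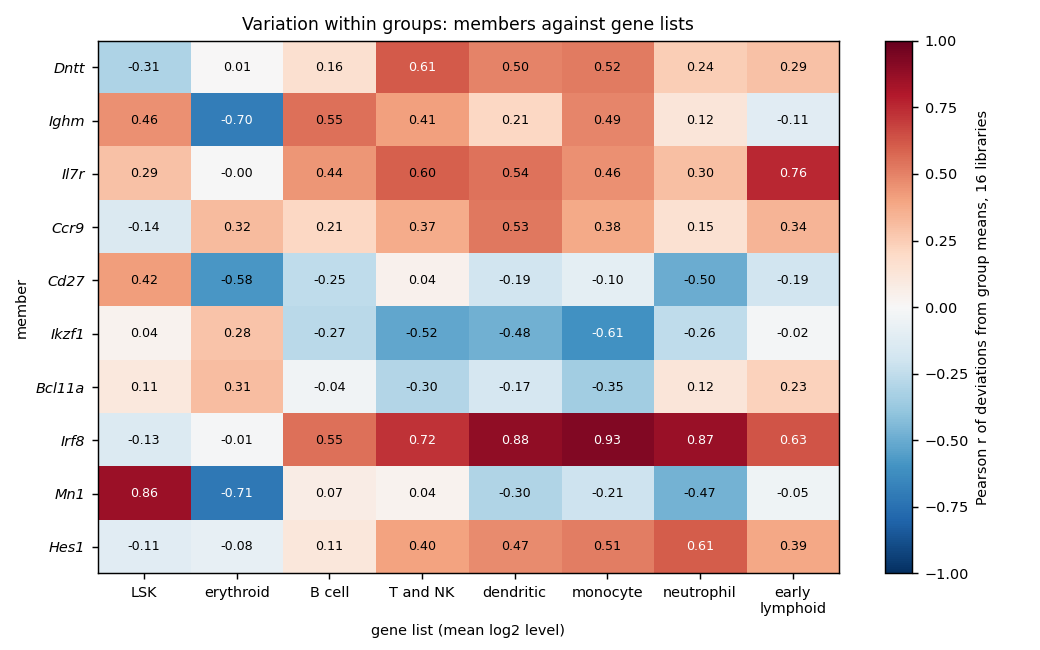
Pearson r of deviations from the group mean over 16 libraries, with the 10 genes as rows and 8 gene lists (mean log2 level) as columns, on a colour scale from -1 to 1. Irf8 with the monocyte list is highest (0.93) and Mn1 with the erythroid list lowest (-0.71).

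Within groups the 10 genes did not vary as a block. Over the 45 pairs, deviations from the group mean had the highest r for Ikzf1 with Bcl11a (0.66), Cd27 with Mn1 (0.62) and Irf8 with Hes1 (0.55). The lowest were Ighm with Bcl11a (-0.63), Ighm with Ikzf1 (-0.55) and Dntt with Bcl11a (-0.47). Marker lists also tracked single genes, with r = 0.86 for Mn1 and the LSK markers, 0.76 for Il7r and the early lymphoid list, 0.61 for Dntt and the T and NK cell markers, -0.70 for Ighm and the erythroid markers, and -0.58 for Cd27 and the erythroid markers. These are descriptions over 16 libraries that share their depth and scaling. They are not independent points, since same-numbered WT libraries deviated together. Spread was smallest for Dntt in Tet2-deficient air, with a coefficient of variation of 2.98%, and largest for Hes1 in WT air, at 84.0%.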

How the data were processed

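The values are a deposited signal in which the authors scaled each library's gene counts by its size factor (DESeq2-normalized counts, per the file name). The submitters' processing notes name FastQC, cutadapt, STAR, HTSeq, DESeq2 and GRCm38, with no versions, and per the labels' protocols RNA integrity exceeded 7. The table lists 6288 of 55450 annotated genes, and how they were chosen is not stated, so an adjustment over them is lenient. Testing was limited to the 6110 genes that reached 10 normalized counts in 4 or more libraries. Values were log2-transformed after adding 1 and entered a limma 3.58.1 trend model (R 4.3.3) of all 16 libraries with a mean per group, two-sided. The threshold was a Benjamini-Hochberg adjusted p of 0.05. Errors are SD for levels and SE for log2 differences. Every value was a whole number of reads within 0.01 (100% of values), so edgeR 4.0.16 and DESeq2 1.42.0 were run on recovered reads as alternatives, beside other scalings, filters and pseudocounts and fits without single libraries. The limma fit was tested on simulated data. The 10 genes and the gene lists were chosen with earlier results of these data known. Not all listed genes were in the table. It held 5 of 12 LSK, 7 of 22 B cell, 24 of 28 T and NK cell and 12 of 21 dendritic cell markers. It also held 9 of 15 monocyte, 8 of 13 neutrophil and 21 of 23 erythroid markers. For the Notch pathway it held 9 of 31 genes, and for the interferon regulatory factor and PU.1 group 10 of 19. Up to 4 genes were named per list and comparison, by smallest p, and a gene that ran close to Ikzf1 is not reported here. Deviations of same-numbered libraries correlated at 0.16 to 0.33 in WT and at -0.27 to 0.32 in Tet2-deficient cells. The WT numbers thus paired the libraries, each having its highest r with its own number. Of the Tet2-deficient numbers only number 1 did so (r = 0.32). Tet2-deficient number 2 had r = 0.50 with a library of another number. Whether Tet2-deficient libraries depended on each other under other numbers was not tested. The fit of all 16 libraries had no block, and a fit of the WT libraries with the number as a block, added after the data were seen, was an alternative.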

Additional observations from a re-analysis of the deposited data

Results flagged for a closer look

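In 3 of 40 sets of 4 libraries (10 genes in 4 groups) 1 library stood apart from the rest of its group by Dixon's test at the 95% level, where about 2 sets would be expected by chance. Hes1 in Tet2-deficient air had its highest library at 523.1 normalized counts, with the next at 207.9 and a gap of 0.857 of the range. Hes1 in WT air had its highest library at 258.6, with the next at 71.8 and a gap of 0.933 of the range. Dntt in WT air had its lowest library at 1528.5, with the nearest other at 1688.5 and a gap of 0.92 of the range.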

How the results depend on the processing

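No gene of the 10 changed direction among called values under any alternative. Ighm and Ccr9 were called in both oxygen conditions in every alternative run, as were Mn1 and Cd27 in air and Dntt and Bcl11a in physioxia. Counts of the 10 genes called in air (8) were 4 without Tet2-deficient air libraries 3 and 4 together, 5 without WT air libraries 1 and 2 together, and 4 when the annotated genes that the table lacks were added as not changed. With that last bound the count in physioxia (7) was 4. Over all genes, calls in air (4858) numbered 2760 without that Tet2-deficient pair and 2436 under the bound, and calls in physioxia (4243) numbered 2479 under the bound. Calls between oxygen conditions in WT (352) numbered 548 by DESeq2, 0 without that WT pair and 0 under the bound. In Tet2-deficient cells they numbered 0, against 1 with a pseudocount of 5, 8 by DESeq2, 1 with the replicate block and 152 without the Tet2-deficient pair. The interaction (0) had 10 calls by DESeq2. Leaving out single libraries gave 6 to 9 of the 10 genes in air, 4 to 7 in physioxia (4 without WT physioxia library 1), 0 to 1 between oxygen conditions in WT, and 0 in Tet2-deficient cells and for the interaction. Over all genes it gave 4050 to 5274 in air, 3842 to 4306 in physioxia, 128 (without WT air library 4, or WT physioxia library 1) to 554 (without WT physioxia library 4) between oxygen conditions in WT, 0 to 1 in Tet2-deficient cells and 0 to 1 for the interaction. The causes were not tested. With the replicate number as a block, counts of the 10 genes stayed at 7, 8, 0, 0 and 0, and calls over all genes were 4203 in physioxia, 4822 in air and 269 between oxygen conditions in WT. This block gave same-numbered libraries of both genotypes a shared effect, although of the Tet2-deficient numbers only number 1 paired its libraries. The unchanged counts therefore do not show how pairing within a genotype would act. The block fitted to WT libraries alone gave 0 of the 10 genes and 268 genes in all. Without Tet2-deficient air libraries 3 and 4 the air calls of Ikzf1 (0.44), Bcl11a (0.39), Hes1 (1.06) and Il7r were lost. Without WT air libraries 1 and 2 those of Ikzf1 (0.44), Bcl11a (0.59) and Il7r (-0.59) were lost. Depth limits Il7r and Ccr9 most, at 10 to 80 and 12 to 97 reads per library.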

Other observations

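Genes whose deviations from the group mean were most like those of each of the 10 genes over the 16 libraries are given as a description. They had the highest r among a part of the genes tested. Genes with a low mean count, immunoglobulin and T cell receptor genes and genes with provisional symbols were left out of this ranking. Irf8 ran closest to Ctss (0.95), a lysosomal protease of antigen-presenting cells, Fgr (0.93), a kinase of myeloid cells, and Ngp (0.93), a neutrophil granule gene. Ighm ran closest to Ctsc (0.92), Alox12e (0.92) and Acot7 (0.90). Bcl11a ran closest to Tnrc6b (0.97), Hipk2 (0.95) and Abca3 (0.94), and Ikzf1 to Eif4g1 (0.95) and Tbc1d22b (0.92). Mn1 was closest to Luzp1, Kctd10 and Rabgef1 (0.94 each), and Cd27 to Prss34 (0.90), D16Ertd472e (0.89) and Pcp4l1 (0.87). Il7r, Ccr9, Dntt and Hes1 had weaker partners than the other genes. Il7r ran closest to Oas2 (0.86), Tent5c (0.80) and L1cam (0.78), and Ccr9 to Rbm41 (0.82), Gpr18 (0.82) and Nedd9 (0.80). For Dntt the closest were Slc27a6 (0.79), Xlr4a (0.77) and Hp (0.76), and for Hes1 they were Klf9 (0.80), Dusp2 (0.76) and Dusp5 (0.73).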
